A study of Rattus norvegicus with 16 samples.

Results

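The genes described here are the repressors of the circadian clock in rat kidney: Per1, Per2, Per3, Cry1, Cry2, Ciart, Bhlhe40 and Bhlhe41. They were found by gene name, each on 1 row of a table of 35849 genes, so they are 8 of 35849 genes. The rule uses names and not values, but the set was chosen with earlier results of these data known. Renal tissue of 16 male Sprague Dawley rats was sequenced, 4 rats in each of 4 groups, to ask how sinomenine (SIN), an alkaloid from a medicinal plant, acts on the kidney in diabetic nephropathy (DN), the kidney disease of diabetes. The rats were 6 to 8 weeks old at the outset. Normal rats received citrate buffer alone and a normal diet. The rats of the DN group received streptozotocin (STZ), a toxin of the insulin-producing beta cells, at 45 mg/kg after a night without food, and then a diet rich in glucose and fat. A pair of SIN groups had the same injection and diet as the DN group and were also given SIN by gavage every day for 8 weeks, at 20 mg/kg in one and at 40 mg/kg in the other, where DN rats received vehicle. Only injected rats with high blood glucose afterwards were kept in the study. STZ and diet were given together, so their effects cannot be told apart, and no group received SIN without STZ. Gavage is stated for the DN and SIN rats and not for the normal rats. In comparisons with normal kidney its effect cannot be told apart from those of STZ and diet.

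The circadian clock is a loop of transcription and repression that runs in nearly every cell. The activators ARNTL (also called BMAL1) and CLOCK, or NPAS2 in place of CLOCK, bind E-box sequences and switch on the Per and Cry genes, whose proteins return to the nucleus and inhibit the activators. CIART (also called CHRONO) and the transcription factors BHLHE40 (DEC1) and BHLHE41 (DEC2) repress the same activators. In the kidney the clock sets daily rhythms of sodium handling and filtration, and the levels of these mRNAs depend on the hour at which tissue is taken. The hour of collection is not given in the sources used here. Any difference in hour between groups therefore cannot be told apart from STZ, diet or SIN. Each rat gave a single sample, so a shift in the timing of the rhythm cannot be told apart from a change of level.

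The libraries held 19616312 to 25217030 estimated counts each. The summed level of 6 proximal tubule markers was between 6050 and 11400 CPM (counts scaled to a common library total) in the 16 rats, so tubule markers were present as the kidney label has it. Library serial numbers were consecutive inside each group, and no label names a batch. Any effect that follows the order of these numbers cannot be told apart from treatment. The third DN rat stood apart in its summed level of 4 smooth muscle markers, at 678 CPM against 190 to 276 CPM in the other 3 DN rats. In whole tissue, fewer cells of a type and less RNA per cell cannot be told apart. Nothing in the labels says more about the replicates than that they are different rats, and p-values set a group difference against the spread between these rats.

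The activators can bind close to the start of a gene, among other places. The 250 bases before the RefSeq start are shown for the 5 members that hold a match to a clock motif there. The windows come from RefSeq on build GRCr8, which held 7 of the 8 members. Each is read 5′ to 3′ on the strand of its gene, and capitals mark the E-box CACGTG, the related CACGTT or the D-box TTATGTAA.
Ciart (chr2:186112247-186112496, minus strand): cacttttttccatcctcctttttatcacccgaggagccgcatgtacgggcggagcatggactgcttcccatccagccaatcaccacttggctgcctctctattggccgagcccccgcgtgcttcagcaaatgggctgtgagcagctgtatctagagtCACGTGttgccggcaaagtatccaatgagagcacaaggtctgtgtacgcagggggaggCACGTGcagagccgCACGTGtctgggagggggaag
Per2 (chr9:99496994-99497243, minus strand): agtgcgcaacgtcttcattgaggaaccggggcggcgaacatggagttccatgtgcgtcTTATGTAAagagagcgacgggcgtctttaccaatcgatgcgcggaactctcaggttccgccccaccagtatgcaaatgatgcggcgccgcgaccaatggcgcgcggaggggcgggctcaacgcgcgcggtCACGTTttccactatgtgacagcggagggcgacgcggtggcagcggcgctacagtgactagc
Cry2 (chr3:98860438-98860687, minus strand): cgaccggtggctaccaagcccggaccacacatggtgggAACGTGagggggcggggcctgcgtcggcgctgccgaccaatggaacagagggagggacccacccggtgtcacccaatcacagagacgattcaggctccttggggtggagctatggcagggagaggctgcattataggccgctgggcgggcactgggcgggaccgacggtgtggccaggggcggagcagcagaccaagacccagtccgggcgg
Bhlhe41 (chr4:180569356-180569605, minus strand): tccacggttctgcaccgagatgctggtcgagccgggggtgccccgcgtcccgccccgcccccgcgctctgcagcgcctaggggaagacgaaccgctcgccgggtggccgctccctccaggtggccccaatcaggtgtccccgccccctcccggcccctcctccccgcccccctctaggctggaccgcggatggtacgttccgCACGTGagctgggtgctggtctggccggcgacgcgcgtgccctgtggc
Bhlhe40 (chr4:143174200-143174449, plus strand): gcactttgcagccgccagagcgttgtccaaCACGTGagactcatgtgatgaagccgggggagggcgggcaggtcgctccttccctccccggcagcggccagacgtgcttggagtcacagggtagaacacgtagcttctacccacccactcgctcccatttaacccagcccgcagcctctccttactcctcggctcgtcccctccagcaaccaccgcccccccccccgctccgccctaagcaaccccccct
Both strands were searched, and no match overlapped another. CACGTG was found in 3 of the 7 windows, those of Ciart, Bhlhe40 and Bhlhe41, and in 5.59% of all 33469 RefSeq windows of the same length. Ciart held 3 copies, whose first bases lay at -93, -35 and -21 from the start. Bhlhe41 had its copy at -48 and Bhlhe40 at -220. CACGTT was found in Per2, at -62, and in Cry2, at -212 on the other strand, where it reads AACGTG, and in 4.07% of all windows. Per2 also held the D-box at -192, a motif of 0.828% of all windows. The windows of Per1 and Per3 held none of these letters, and the annotated start need not be the one used in kidney. Sequence outside the windows was not searched, so a gene without a match here may still hold these motifs elsewhere.

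Of the 7 repressor genes other than Ciart, all but Bhlhe40 had group means that rose from normal to DN and from DN to both SIN groups. Among the 16404 genes kept over all rats, 6.9% had means in that order and 8.0% had means in the reverse order. Ciart had means in the rising order too, but it is left out of this count and of the counts of calls below. Its normal rats all lay under the minimum count for testing, and it was kept and tested there only through the groups where it was high. In 1 test per gene of any difference among the 4 groups, 5 of the other 7 genes passed an adjusted p of 0.05 (edgeR's quasi-likelihood F test with Benjamini-Hochberg adjustment), against 11.9% of the genes tested. Per1 (adjusted p = 0.11) and Bhlhe40 (adjusted p = 0.206) did not pass. The comparisons of pairs of groups below share their control rats, so they are not independent of each other.

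**Figure D1:**
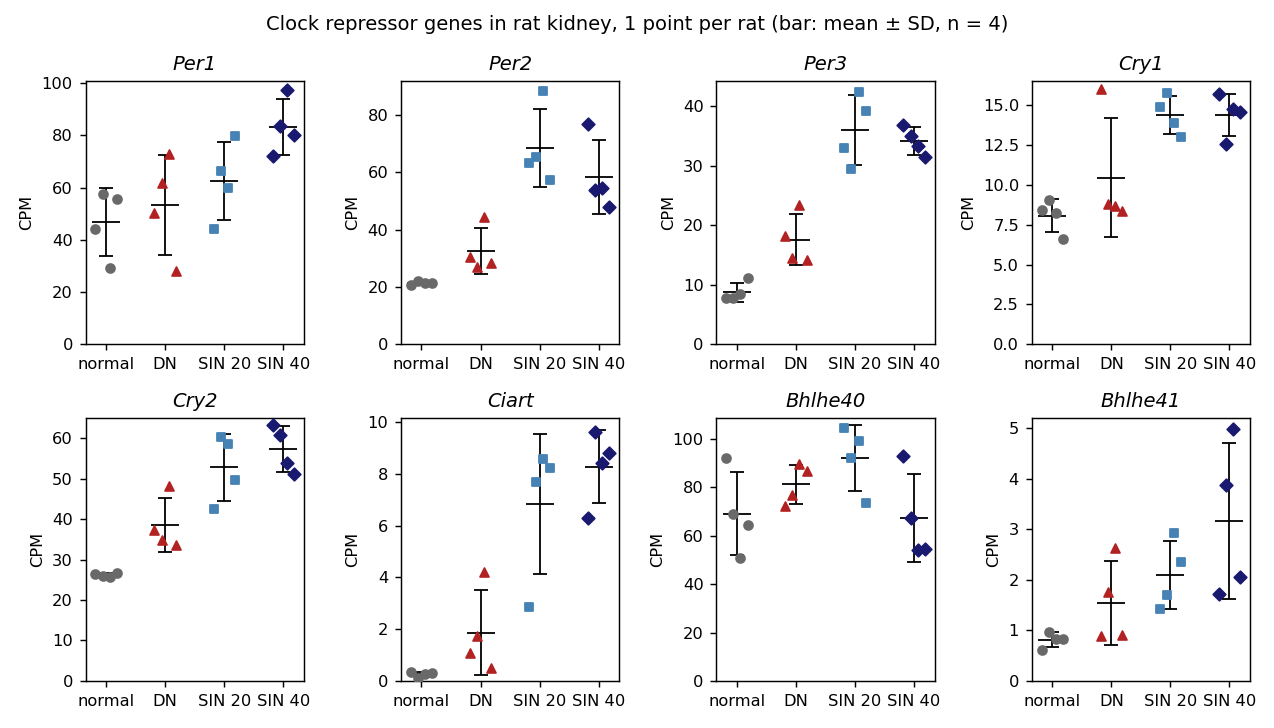
CPM of each repressor gene (vertical axes, from 0, 1 panel per gene) in the 4 rats of each group, with bars for the mean ± SD. In Per2, Per3, Cry2 and Ciart the normal rats lie below all DN rats, and the SIN (40 mg/kg) rats lie above all DN rats. For Ciart the lowest DN rat had 10 reads and the highest normal rat 7.

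Per3, Per2 and Cry2 were higher in DN than in normal kidney, by 2.01, 1.52 and 1.47 times. These were 3 of the 7 members tested, all higher, against 8.74% of all genes tested that were called higher. The median log2 fold change of the 7 genes was 0.56, against 0.00 over all genes. Groups did not overlap for the same 3 genes of the 7, against 11.3% of genes with all DN rats above all normal rats. Ciart had too few counts to be tested in this fit, and its lowest DN rat (10 reads) lay above its highest normal rat (7 reads). Without normal replicate 3, or without normal replicate 4, only Per3 of the members was called, and Per2 was also lost without normal replicate 1. Markers of other cell types moved in the same comparison. Of 4 smooth muscle markers Tagln rose (log2 change 1.81, adjusted p = 0.0064), of 4 fibroblast markers Col1a1 and Pdgfrb rose (1.08 and 0.38, adjusted p = 0.0262 and 0.0209), and of 3 fat markers tested Cidea rose (2.37, adjusted p = 0.0121). The fibroblast markers Dcn (-0.48, adjusted p = 0.134 in edgeR) and Lum (0.83, adjusted p = 0.538) did not pass. Of 4 immune markers Ptprc fell by 0.81 (adjusted p = 0.0328), of 5 collecting duct markers Slc26a4 by 0.89 (adjusted p = 0.0249) and of 3 markers of the thick ascending limb Umod by 0.77 on the log2 scale (adjusted p = 0.0154). Other markers of these lists did not pass in edgeR. Of the collecting duct, Aqp2 read 1.23 (adjusted p = 0.076), Aqp3 0.88 (adjusted p = 0.0928), Scnn1g 0.02 and Slc4a1 -0.17. Immune Cd68 read 0.24, Cd3e -0.70 and Cd74 -0.49. Summed smooth muscle markers were 86.9 to 194 CPM in normal and 190 to 678 CPM in DN rats, fibroblast markers 194 to 245 and 229 to 330 CPM, and immune markers 498 to 1050 and 421 to 629 CPM. Collecting duct markers summed to 497 to 1150 CPM in normal and 803 to 1840 CPM in DN rats. No marker of these lists was at 0 over all rats, and their part in the levels of the repressors was not tested.

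In SIN (20 mg/kg) against normal kidney 5 of the 7 genes other than Ciart were called, all higher (Per2, Per3, Cry1, Cry2 and Bhlhe41), against 2.77% of genes called higher. In SIN (40 mg/kg) against normal kidney 6 of the 7 were called, the same 5 and Per1, all higher, against 2.28% of genes. The median log2 fold changes of the 7 genes were 1.01 and 1.14, against medians of 0.00 and 0.01 over all genes. Groups did not overlap for 5 and 6 of them, respectively, against 6.4% of genes with all SIN rats above all normal rats in either comparison.

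No member passed the adjusted p of 0.05 between a SIN group and the DN group, where 0% of genes did at either dose. At an unadjusted p of 0.05 in edgeR's test, 3 of the 7 members other than Ciart were higher in SIN (20 mg/kg) than in DN, against 9.2% of genes, and 5 of 7 in SIN (40 mg/kg), against 9.9% of genes. With 20 mg/kg the rats of Per2 and Per3 did not overlap the DN rats (2 of 7, against 4.87% of genes with the SIN rats above). With 40 mg/kg those of Per2, Per3 and Cry2 did not (3 of 7, against 5.76% of genes). DESeq2 called 2 of the 7 higher at 20 mg/kg (Per2 and Per3), against 0.964% of genes, and 3 at 40 mg/kg (Per2, Per3 and Cry2), against 1.77%. A fit of all 16 rats together called Per2 and Per3 higher at 20 mg/kg, against 0.0427% of genes, and none of the 7 at 40 mg/kg, against 0.0122%.

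**Figure D2:**
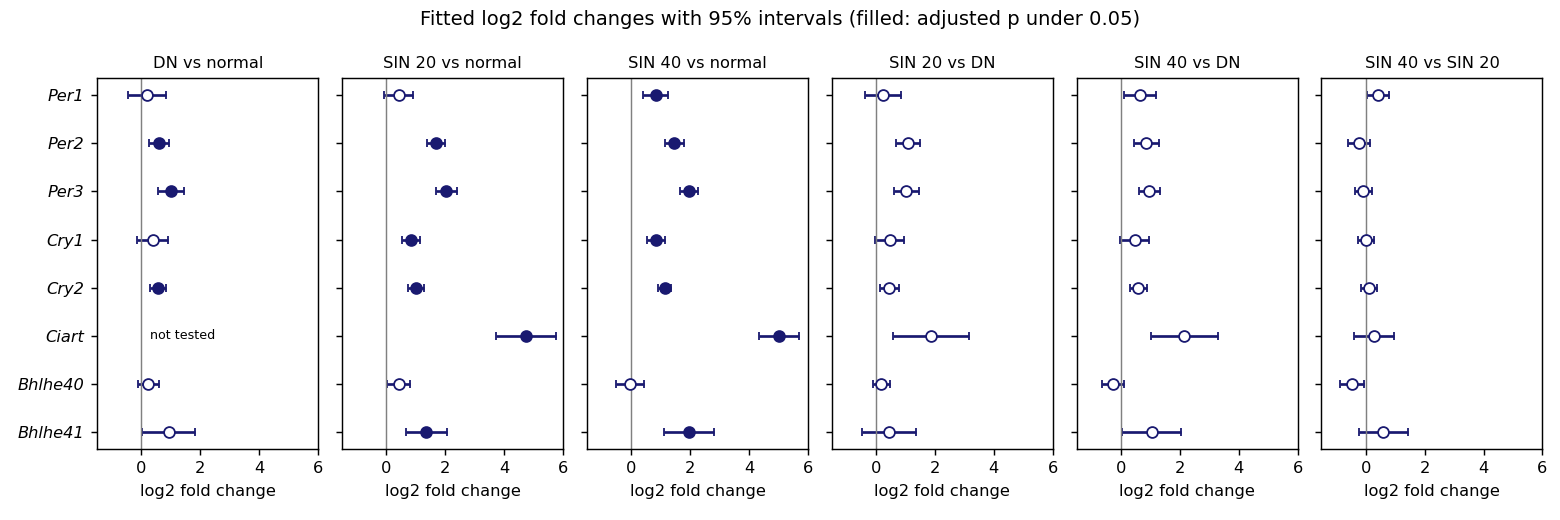
Fitted log2 fold changes (horizontal axes) of the 8 genes in 6 comparisons of 4 rats against 4 rats, with 95% intervals. Filled points passed an adjusted p of 0.05. Ciart was tested against normal and DN rats only through the SIN rats. No filled point lies in the 3 panels that compare SIN groups with DN or with each other.

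The Period genes encode the scaffold of the repressor complex, to which the cryptochromes bind. Per2 (ENSRNOG00000020254) read 20.8, 21.95, 21.3 and 21.2 CPM in normal replicates 1 to 4 and 30.5, 26.9, 44.2 and 28.4 CPM in the DN rats. It read 63.3, 65.2, 88.5 and 57.3 CPM with SIN at 20 mg/kg and 77.0, 53.7, 54.4 and 48.0 CPM at 40 mg/kg. The normal rats varied least, with an SD of 2.25% of their mean, every DN rat lay above them, and every SIN rat lay above every DN rat. Per2 was higher in DN than in normal kidney by 0.61 ± 0.15 on the log2 scale (SE, adjusted p = 0.0262), a call lost without normal replicate 1, 3 or 4 (adjusted p = 0.0619, 0.0679 and 0.0742). Against normal kidney it was higher by 1.69 ± 0.13 with 20 mg/kg (adjusted p = 2.63e-04) and by 1.46 ± 0.14 with 40 mg/kg (adjusted p = 5.76e-04). Against DN the log2 differences were 1.08 ± 0.18 (adjusted p = 0.203, rank 13 of 15724 genes by p) and 0.86 ± 0.19 (adjusted p = 0.175).

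Per3 (ENSRNOG00000018413), whose protein is less required for the rhythm than PER1 and PER2, read 7.79, 7.71, 8.43 and 11.1 CPM in normal rats and 18.2, 14.6, 23.5 and 14.2 CPM in DN rats. In SIN rats it read 33.0, 29.4, 42.5 and 39.2 CPM at 20 mg/kg and 36.9, 35.0, 33.4 and 31.5 CPM at 40 mg/kg. The normal, DN and SIN rats formed 3 ranges with no overlap, while the SIN doses overlapped each other. The log2 differences from normal were 1.00 ± 0.20 in DN (adjusted p = 0.0128), 2.04 ± 0.16 with 20 mg/kg (adjusted p = 2.63e-04) and 1.97 ± 0.14 with 40 mg/kg (adjusted p = 1.32e-04). In the last comparison Per3 ranked 6 of 15735 genes by p. Against DN its differences were 1.03 ± 0.18 (adjusted p = 0.209) and 0.97 ± 0.16 (adjusted p = 0.148).

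Per1 (ENSRNOG00000007387), which besides the clock answers directly to light signals, glucocorticoids and aldosterone, was less regular. Its level was 44.1, 57.6, 29.3 and 55.7 CPM in normal rats and 50.4, 61.6, 73.0 and 28.1 CPM in DN rats. It was 44.0, 66.5, 59.9 and 79.6 CPM with 20 mg/kg and 72.0, 83.6, 97.3 and 80.0 CPM with 40 mg/kg. Normal, DN and SIN (20 mg/kg) rats overlapped, and the 4 SIN (40 mg/kg) rats lay above the normal rats. Against normal kidney Per1 was higher by 0.84 ± 0.19 on the log2 scale with 40 mg/kg (adjusted p = 0.0302), a call lost without normal replicate 1 or 4 or without SIN (40 mg/kg) replicate 2 or 3. The log2 differences were 0.19 ± 0.29 in DN (adjusted p = 0.658) and 0.42 ± 0.23 with 20 mg/kg (adjusted p = 0.325).

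The cryptochromes are the subunits that bind and inhibit the activators. Cry2 (ENSRNOG00000007478) read 26.5, 25.9, 25.6 and 26.7 CPM in normal rats and 37.4, 34.9, 48.3 and 33.5 CPM in DN rats. It read 42.6, 60.4, 58.5 and 49.7 CPM with 20 mg/kg and 63.2, 60.8, 54.0 and 51.1 CPM with 40 mg/kg. The normal rats were again the tightest group, with an SD of 1.91% of their mean against 17.4% in DN rats, and only SIN (20 mg/kg) replicate 1 fell within the DN range. Cry2 was higher than normal by 0.56 ± 0.12 on the log2 scale in DN (adjusted p = 0.017), by 1.01 ± 0.12 with 20 mg/kg (adjusted p = 0.00146) and by 1.14 ± 0.09 with 40 mg/kg (adjusted p = 3.04e-04). Against DN its log2 differences were 0.46 ± 0.15 (adjusted p = 0.271) and 0.59 ± 0.13 (adjusted p = 0.175).

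Cry1 (ENSRNOG00000006622) is expressed later in the cycle than the Period genes in most tissues, since its activation is delayed. Its level was 8.45, 9.02, 8.21 and 6.62 CPM in normal rats and 16.1, 8.79, 8.65 and 8.36 CPM in DN rats. With 20 mg/kg it was 14.9, 15.7, 13.9 and 13.0 CPM and with 40 mg/kg 15.7, 12.6, 14.8 and 14.6 CPM. Of the DN rats, 3 lay at the level of the normal rats and the first lay above every SIN rat. Cry1 was higher than normal by 0.83 ± 0.14 on the log2 scale with 20 mg/kg (adjusted p = 0.00709) and by 0.84 ± 0.14 with 40 mg/kg (adjusted p = 0.00681), with no overlap of rats in either case. The log2 difference of DN from normal was 0.37 ± 0.23 (adjusted p = 0.261), and it was 0.09 without DN replicate 1.

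Ciart (ENSRNOG00000042717) had the widest range of the members, 98.4-fold between its lowest and highest rat. It read 0.328, 0.0976, 0.262 and 0.309 CPM in normal rats, which was 2 to 7 reads per rat and 22 reads in all, and 1.06, 1.72, 4.21 and 0.481 CPM in DN rats. With 20 mg/kg it read 2.84, 7.67, 8.58 and 8.24 CPM and with 40 mg/kg 6.28, 9.60, 8.40 and 8.80 CPM. Every DN rat lay above every normal rat, though the lowest DN rat had 10 reads and the highest normal rat 7. With 40 mg/kg every rat lay above every DN rat. The ratio of summed reads over the normal rats was 7.49 in DN (95% interval 4.78 to 12.3), 26.8 with 20 mg/kg (17.5 to 43.1) and 33.0 with 40 mg/kg (21.7 to 53.1). These exact binomial intervals cover counting error only, and the ratio in DN was 4.27 without DN replicate 3. Of the normal rats 0 reached the minimum count for testing and all 4 SIN rats did at either dose, so Ciart entered the tests against normal kidney through the groups where it was high. In edgeR with no filter on low counts, where that choice plays no part, the log2 differences from normal were 2.87 ± 0.66 in DN (adjusted p = 0.0227), 4.73 ± 0.44 with 20 mg/kg (adjusted p = 1.64e-04) and 5.01 ± 0.32 with 40 mg/kg (adjusted p = 2.09e-05). Against DN the log2 differences were 1.86 ± 0.58 (adjusted p = 0.27) and 2.16 ± 0.51 (adjusted p = 0.179). There 3 DN rats and all 4 SIN rats reached the minimum count at either dose, so Ciart again entered through the SIN rats. In edgeR with no filter the differences from DN were 1.86 ± 0.55 (adjusted p = 0.329) and 2.16 ± 0.49 (adjusted p = 0.193).

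Bhlhe41 (ENSRNOG00000048961) was scarce, with 71 reads in all in the normal rats. It read 0.610, 0.976, 0.830 and 0.839 CPM in normal rats and 0.884, 1.77, 2.63 and 0.913 CPM in DN rats. With 20 mg/kg it read 1.42, 1.71, 2.93 and 2.35 CPM and with 40 mg/kg 1.73, 3.89, 4.99 and 2.06 CPM. The SIN rats lay above the normal rats at both doses and overlapped the DN rats. Bhlhe41 was higher than normal by 1.36 ± 0.32 on the log2 scale with 20 mg/kg (adjusted p = 0.0314) and by 1.96 ± 0.38 with 40 mg/kg (adjusted p = 0.0148). The first call was lost on leaving out any 1 of the 8 rats except SIN (20 mg/kg) replicate 1, with adjusted p up to 0.0973, and the second without SIN (40 mg/kg) replicate 2 (adjusted p = 0.0527).

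Bhlhe40 (ENSRNOG00000007152), which is also induced by hypoxia, growth factors and insulin, did not pass in any comparison. It read 92.2, 68.8, 50.8 and 64.5 CPM in normal rats and 72.1, 76.6, 89.5 and 86.7 CPM in DN rats. With 20 mg/kg it read 104.7, 91.9, 99.1 and 73.3 CPM and with 40 mg/kg 92.8, 67.1, 54.2 and 54.4 CPM. All 4 groups overlapped. Its largest log2 difference was -0.46 ± 0.18 for SIN (40 mg/kg) against SIN (20 mg/kg) (adjusted p = 0.961, unadjusted p = 0.0286 in edgeR).

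The SIN doses did not differ for any member at an adjusted p of 0.05, a threshold that 0.00639% of genes passed in either direction. At an unadjusted p of 0.05 in edgeR's test, 2 members passed, Per1 higher and Bhlhe40 lower at 40 mg/kg, against 4.98% of genes. No member had separate groups of rats, against 3.3% of genes. The 95% interval of the log2 difference between doses ran from -0.27 to 0.27 for Cry1, from -0.16 to 0.39 for Cry2, from -0.35 to 0.20 for Per3 and from -0.61 to 0.14 for Per2. For Ciart it ran from -0.40 to 0.96, for Bhlhe41 from -0.24 to 1.43, for Per1 from 0.05 to 0.79 and for Bhlhe40 from -0.86 to -0.06. A difference between doses as large as the fitted one between SIN and normal rats lay outside the interval for Per2, Per3, Cry1, Cry2 and Ciart.

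Levels of different genes were compared per length, in RPKM (CPM divided by the length of the gene). Bhlhe40 was the highest member in all 4 groups, between 28.3 and 38.8 RPKM on average. Per1 came second in every group, from 11.5 ± 3.2 RPKM (SD, n = 4) in normal rats to 20.6 ± 2.6 RPKM with 40 mg/kg, and Cry2 came next, from 6.59 ± 0.13 to 14.4 ± 1.4 RPKM. Neighbours in the middle of that order were close. In normal rats Per2 (3.69 ± 0.08), Cry1 (2.76 ± 0.35) and Per3 (2.61 ± 0.47 RPKM) followed, and Cry1 and Per3 did not differ beyond their SDs. With 20 mg/kg Per2 (11.9 ± 2.4) and Per3 (10.7 ± 1.8 RPKM) did not differ beyond their SDs either, and both stood above Cry1 (4.92 ± 0.41 RPKM). Ciart was the lowest member in normal rats, at 0.155 ± 0.065 RPKM, and reached 5.16 ± 0.88 RPKM with 40 mg/kg, the level of Cry1 (4.93 ± 0.45 RPKM). Bhlhe41 was the lowest member in both SIN groups, at 1.76 ± 0.56 and 2.65 ± 1.29 RPKM.

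**Figure D3:**
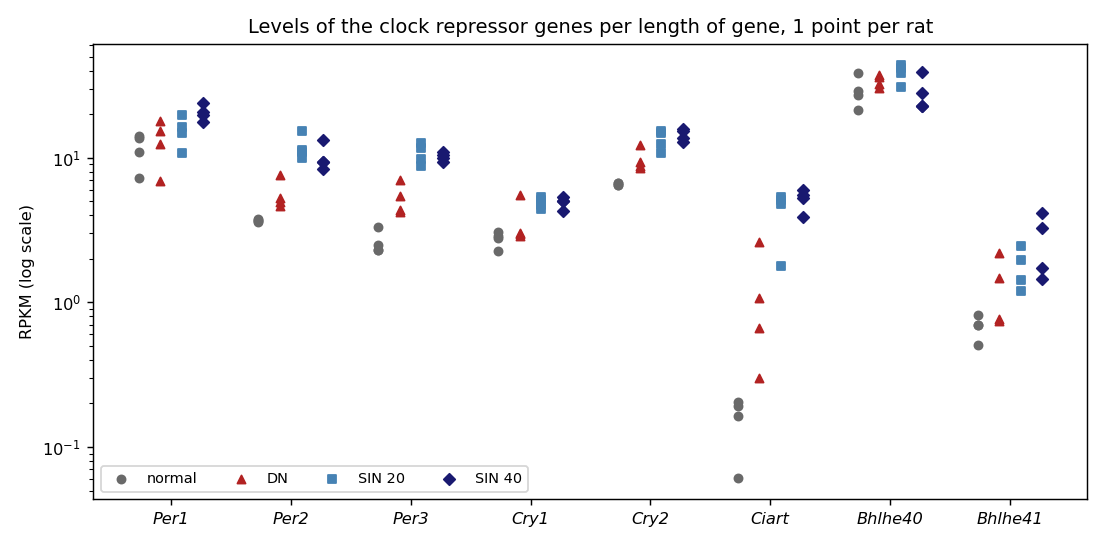
RPKM of each member on a log scale (vertical axis), 1 point per rat, with the 4 groups side by side for each gene (horizontal axis). Bhlhe40 lies highest in every group, and Ciart moves from the lowest place in normal rats to the level of Cry1 in SIN rats.

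Rats of 1 group also differed from each other across the members. DN replicate 3 was the highest DN rat in 7 of the 8 genes, all but Cry1. Over all 8 genes it lay 0.51 above its group's mean on the log2 scale on average. DN replicate 4 was the lowest in 5 of the genes (Per1, Per3, Cry1, Cry2 and Ciart), and its mean over all 8 was -0.45. Ciart, with few reads, had the largest SD of log2 CPM among the DN rats (1.22) and weighs most in both means. SIN (20 mg/kg) replicate 1 was the lowest of its group in 4 (Per1, Cry2, Ciart and Bhlhe41). DN replicate 3 is the rat with the high smooth muscle markers, and its fibroblast markers also summed to 330 CPM against 229 to 242 CPM in the other DN rats. Their part in its clock gene levels was not tested. Without this rat Per2, Per3 and Cry2 were still called in DN against normal kidney, with log2 differences of 0.43 ± 0.10, 0.84 ± 0.18 and 0.43 ± 0.09. Without it Per3 was called in SIN (40 mg/kg) against DN in edgeR (1.14 ± 0.13, adjusted p = 0.0432), where 4 genes in all were called. Ciart differed there by 2.94 ± 0.39 (adjusted p = 0.0823). Since the rat was singled out by its high member levels, leaving it out widens these differences, and nothing is concluded from that call.

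**Figure D4:**
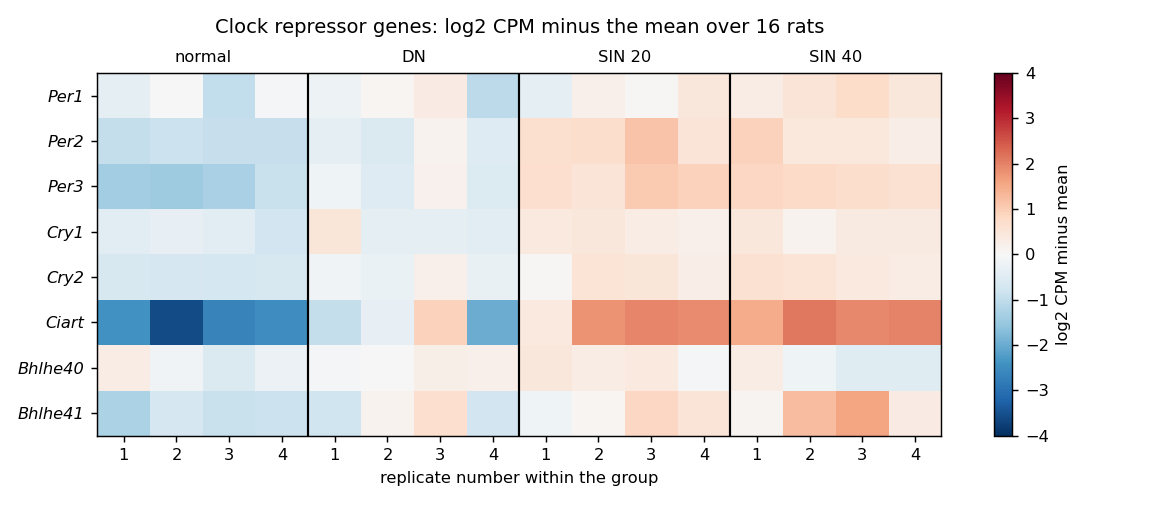
Log2 CPM of each member (rows) in each of the 16 rats (columns, in groups of 4), minus the gene's mean over all rats, with blue for lower and red for higher. The normal rats are low in Per2, Per3, Cry2 and Ciart, the DN rats vary, with replicate 3 highest in 7 of the 8 genes, and the SIN rats are high in Per2, Per3 and Ciart.

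Of the activators of the loop, Arntl and Npas2 went the other way, and Clock did so only in part. Of 3 tested (Arntl, Clock and Npas2; Arntl2 had too few counts), 3 fell in DN against normal kidney, 2 fell in SIN (20 mg/kg) and 2 in SIN (40 mg/kg) against normal kidney, and 0 passed between SIN and DN in edgeR, where 2 were lower at an unadjusted p of 0.05 at each dose (6.24% and 7.21% of genes). Over all genes, 10.8% were called lower in DN, 3.58% with 20 mg/kg and 3.69% with 40 mg/kg against normal kidney. Arntl read 40.0, 43.9, 37.0 and 32.5 CPM in normal rats and 17.3, 19.5, 10.3 and 20.3 CPM in DN rats. It read 6.50, 3.30, 2.42 and 4.09 CPM with 20 mg/kg and 5.18, 4.92, 4.85 and 7.51 CPM with 40 mg/kg. Its groups did not overlap in the order normal, DN and SIN, the reverse of Per3. The log2 change of Arntl from normal was -1.19 ± 0.20 in DN (adjusted p = 0.00738), -3.23 ± 0.26 with 20 mg/kg (adjusted p = 2.84e-04) and -2.76 ± 0.17 with 40 mg/kg (adjusted p = 7.42e-05). Npas2 fell by 1.58, 3.66 and 2.66 on the log2 scale in the same comparisons (adjusted p = 0.00387, 6.37e-05 and 5.76e-04). Clock fell by 0.84 in DN (adjusted p = 0.0107). Its log2 differences from normal with 20 and 40 mg/kg were -0.57 and -0.69 (adjusted p = 0.141 and 0.051 in edgeR). From DN they were 0.27 and 0.16 (adjusted p = 0.506 and 0.677). In log2 CPM, Per2 minus Arntl averaged -0.84 ± 0.17 in normal, 0.96 ± 0.77 in DN, 4.11 ± 0.80 with 20 mg/kg and 3.35 ± 0.50 with 40 mg/kg (SD, n = 4).

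**Figure D5:**
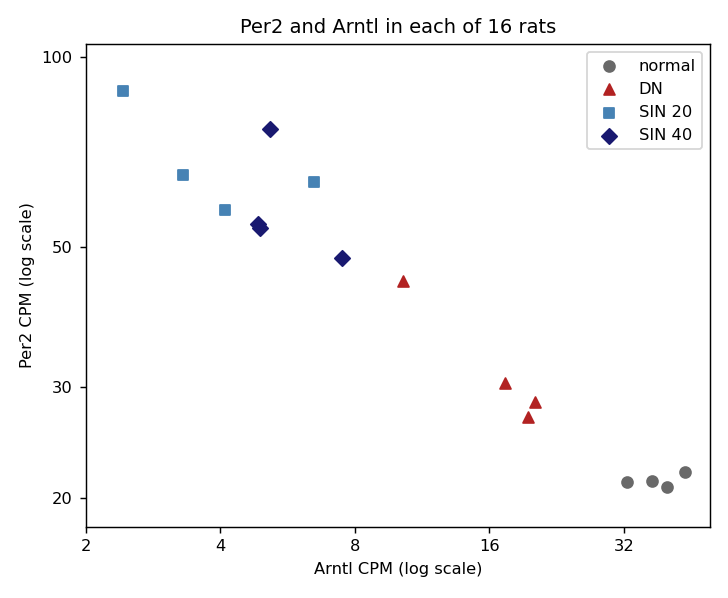
Per2 CPM (vertical axis) against Arntl CPM (horizontal axis), both on log scales, 1 point per rat. Normal rats sit at high Arntl and low Per2, SIN rats at low Arntl and high Per2, and DN rats between, with DN replicate 3 nearest to the SIN rats.

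Other outputs of the activators were measured beside the repressors. Of 4 genes that act on the D-box, Dbp and Tef rose in DN, and Dbp, Tef and Hlf rose in both SIN groups against normal kidney (8.74%, 2.77% and 2.28% of genes were called higher), while Nfil3, which represses through the same box, fell with 40 mg/kg (log2 change -1.44 ± 0.22, adjusted p = 0.0048). Dbp ranged from 20.4 to 43.9 CPM in normal, from 72.6 to 144.9 in DN, from 95.6 to 210.5 with 20 mg/kg and from 149.4 to 222.5 CPM with 40 mg/kg. Its log2 differences from normal were 1.78, 2.58 and 2.68 (adjusted p = 0.00524, 0.00128 and 3.72e-04). Of 3 nuclear receptors tested, Nr1d1 (REV-ERBalpha, the repressor of Arntl) rose in DN by 1.07 ± 0.16 (adjusted p = 0.00551), and Nr1d2 rose in both SIN groups, by 0.71 and 0.90 (adjusted p = 0.0437 and 0.0205). Nr1d1 did not keep the order of the Period genes, with means of 34.9 in normal, 73.4 in DN, 46.1 with 20 mg/kg and 57.2 CPM with 40 mg/kg. Rora, an activator of Arntl, fell in DN by 0.78 (adjusted p = 0.0273).

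Enzymes that modify PER and CRY proteins, such as casein kinases and ubiquitin ligases, were counted in the same way. Of 12 tested, 1 rose and 2 fell in DN against normal kidney, where 8.74% of all genes were called higher and 10.8% lower. With each SIN dose 1 rose against normal kidney, where 2.77% and 2.28% of genes did. In edgeR 0 passed between SIN and DN. At an unadjusted p of 0.05, 6 were higher with 40 mg/kg (9.9% of genes), and 4 were higher (9.2%) and 1 lower (6.24%) with 20 mg/kg. Usp2, a deubiquitinase and itself a clock output, rose with both SIN doses against normal kidney (log2 changes 1.45 and 1.65, adjusted p = 0.0088 and 8.12e-04), from 38.9 ± 10.4 CPM in normal to 106.1 ± 31.2 CPM with 20 mg/kg and 121.7 ± 11.5 CPM with 40 mg/kg. In DN, Csnk2b rose by 0.46 (adjusted p = 0.017), and Prkaa2 and Usp7 fell by 0.93 and 0.42 on the log2 scale (adjusted p = 0.00667 and 0.0168). Of 4 nuclear partners of the PER complex (Timeless, Nono, Sfpq and Wdr5), 0 passed in any comparison in edgeR. At an unadjusted p of 0.05, 1 was lower in DN than in normal (19.4% of genes), 1 higher in SIN (40 mg/kg) than in DN (9.9%) and 1 higher in SIN (20 mg/kg) than in normal (10.2%).

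Kidney genes known to depend on Per1 were also read. Of 7 tested, Edn1, Slc5a1 and Scnn1a rose in DN by 1.08, 0.50 and 0.69 on the log2 scale (adjusted p = 0.0294, 0.0474 and 0.0165), against 8.74% of genes called higher, though Per1 itself did not pass there. Wnk1 (-0.36, adjusted p = 0.0625) and Slc12a3 (-0.46, adjusted p = 0.0868) had negative log2 differences in DN and did not pass, Fxyd5 read 0.48 (adjusted p = 0.081) and Slc9a3 0.05 (adjusted p = 0.859). Scnn1a, the alpha subunit of the epithelial sodium channel, also rose with 20 mg/kg (0.62, adjusted p = 0.0403) and 40 mg/kg (0.69, adjusted p = 0.0442). Glucocorticoids drive Per1 as well, and of 6 other genes that respond to them 4 fell in DN against normal kidney (Pdk4, Klf9, Fkbp5 and Tsc22d3), 2 fell with 20 mg/kg and 1 with 40 mg/kg, against 10.8%, 3.58% and 3.69% of genes called lower. Their summed level was 394 to 614 CPM in normal, 235 to 377 in DN, 359 to 448 with 20 mg/kg and 386 to 588 CPM with 40 mg/kg. Of 8 immediate-early genes, which respond to handling of tissue and to stimuli that also induce Per1, 3 fell in DN (Fos, Egr1 and Nr4a1), 3 with 20 mg/kg and 1 with 40 mg/kg, against the same shares of genes. Their summed level was 128 to 298 CPM in normal and 71.3 to 135 CPM in the other groups together. The part of these genes in the levels of the repressors was not tested.

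Likeness to each member was measured over all 16 rats as the mean absolute difference in log2 CPM, each gene taken minus its own mean, among 16403 genes. The gene nearest to Per2 was Wee1, a kinase of the cell cycle and a target of the clock, at 0.187, followed by Per3 and Cry2, against a median of 0.668 over all genes. Wee1 averaged 12.2 ± 1.7 CPM in normal, 14.2 ± 4.3 in DN, 28.0 ± 4.1 with 20 mg/kg and 24.8 ± 2.3 CPM with 40 mg/kg. Per3 was nearest to Per2 (0.221) and then to Usp2 (0.301) and Mthfd1l (0.303). The gene nearest to Cry2 was Tef, at 0.122 against a median of 0.479. Ciart was nearest to Dbp, at 0.856 against a median of 1.806. Bhlhe41 had Tef second (0.372). The neighbours of Per1 (Herpud1, Abtb1 and Pik3ip1, from 0.215) and Cry1 (first Arhgef26, 0.2) and Bhlhe40 (an unnamed transcript, then Ebpl and G0s2 at 0.145 and 0.153) included no gene of the clock lists. These distances describe the rats measured and carry no test.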

How the data were processed

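Kidney mRNA of 16 rats (4 per group) was selected by oligo(dT) with a TruSeq kit, which does not mark the strand, sequenced on an Illumina platform, trimmed with SeqPrep and Sickle and aligned with TopHat by the authors. The submitters' processing notes also name Bowtie, RSEM and edgeR. The authors deposited estimated counts per gene without normalization. Of the nonzero values 74.3% were whole, and all were rounded. Columns were joined to rats through the library names in the sample records. Columns of 4 rats that no sample record names, and 5 columns of means, were not used.

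Counts were tested over all genes with edgeR 4.0.16 (quasi-likelihood, TMM, filterByExpr, a separate fit of the 8 rats per comparison, two-sided, Benjamini-Hochberg adjustment over all genes tested). The ± after a log2 difference is its SE, and that after CPM or RPKM the SD over 4 rats. CPM and RPKM used TMM factors over 16 rats and the deposited gene lengths, and log2 CPM a prior count of 2. The table's depth, 19616312 to 25217030 estimated counts per rat, leaves Ciart and Bhlhe41 with few reads. The script was tested on simulated data. Alternatives were DESeq2 1.42.0, RLE, no filter, all 16 rats in 1 fit, a replicate block and leaving out each rat. R was version 4.3.3 and Python 3.11.15.

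All 8 members are reported, with clock lists and the 3 genes most like each member whose log2 CPM ranged over at least 1. Not every gene of those lists is reported here. Members and lists were chosen with earlier results of these data known. The coordinates of promoter windows are those of RefSeq on GRCr8, and the counts were made on a different rat assembly. RefSeq spans of Per2, Cry1 and Cry2 overlap 1 uncharacterised locus each, whose reads could not be told apart. The promoter of Cry1 was not analysed here.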

Additional observations from a re-analysis of the deposited data

Results flagged for a closer look

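Among the 32 sets of 4 rats (8 genes in 4 groups), 2 held a rat whose gap to the nearest other rat was above the 95% critical value of Dixon's ratio, a level that chance passes in about 5% of sets. Cry1 in DN replicate 1 was 16.05 CPM, against 8.36 to 8.79 CPM in the other 3 DN rats (gap over range 0.944). The first DN rat was not the highest DN rat for any other member. Ciart in SIN (20 mg/kg) replicate 1 was 2.842 CPM, against 7.67 to 8.58 CPM in the other 3 rats (gap over range 0.842). Without that rat the log2 difference of Ciart from normal was 4.99 ± 0.31 and that from DN 2.12 ± 0.56 (adjusted p = 0.498 in edgeR).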

How the results depend on the processing

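In the comparisons with normal and DN kidney the members kept their direction under every alternative but for Bhlhe40 with 40 mg/kg against normal, which was -0.24 to 0.14 on the log2 scale on leaving out single rats. Between doses, Per3 (-0.16 to 0.0132) and Cry1 (-0.042 to 0.0695) changed sign on leaving out single rats. The cause was not tested. Ciart is again left out of the calls given next, which are those of edgeR on leaving out each rat. In DN against normal Per3 kept its call (adjusted p up to 0.0418), and Per2 and Cry2 did not (up to 0.0742 and 0.0528). Against normal, Per2, Per3, Cry1 and Cry2 kept their calls with 20 mg/kg (up to 0.0239) and with 40 mg/kg (up to 0.0263). Bhlhe41 did not at either dose (up to 0.0973 and 0.0527), nor did Per1 with 40 mg/kg (up to 0.0902). In SIN (40 mg/kg) against DN only Per3 was called, without DN replicate 3 (0.0432). No member was called in SIN (20 mg/kg) against DN or between doses. In SIN (20 mg/kg) against DN, DESeq2 called 2 members other than Ciart higher (0.964% of genes) and all 16 rats in 1 fit 2 (0.0427%). In SIN (40 mg/kg) against DN, DESeq2 called 3 other than Ciart (1.77%) and all 16 rats in 1 fit 0 (0.0122%). With DESeq2 the calls over all genes were 221 and 436 in the SIN groups against DN, at 20 and 40 mg/kg, 17 between doses, 1726 and 1761 in the SIN groups against normal and 3808 for any difference. The main counts were 0, 0, 1, 1009, 940 and 1960. With all 16 rats in 1 fit 13 and 8 genes were called against DN and 0 between doses, Per1 with 40 mg/kg (adjusted p = 0.0676) and Bhlhe41 with 20 mg/kg (adjusted p = 0.0626) lost their calls against normal, and with no filter 2 genes were called at 20 mg/kg against DN. On leaving out each rat, the calls over all genes were 769 to 3781 in DN against normal (3074 with all rats), 551 to 1230 and 462 to 1016 in the SIN groups against normal, 0 to 4 in SIN (40 mg/kg) against DN, 0 to 5 between doses and 863 to 2349 for any difference.

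Between same-numbered rats of different groups, correlations of deviations from group means were between -0.239 and 0.245 over the 6 comparisons. They cannot exclude a factor shared by such rats, for which the labels give only a replicate number. With that number as a replicate block, 1325 genes were called in DN against normal, 0 between doses and 1123 for any difference, and Per2 in DN (adjusted p = 0.0557, as also without normal replicate 1, 3 or 4) and Bhlhe41 with 20 mg/kg (adjusted p = 0.0629) lost their calls in edgeR. RLE normalization changed no call of a member. Depth limits Ciart, with 22 reads in all in the normal rats, and Bhlhe41, with 71.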

Other observations

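Within single rats the members did not move in fixed proportion. Per1 minus Per2 in log2 CPM averaged 1.08 ± 0.44 in normal, 0.66 ± 0.50 in DN, -0.15 ± 0.49 with 20 mg/kg and 0.53 ± 0.42 with 40 mg/kg (SD, n = 4). Per2 minus Cry1 averaged 1.40 ± 0.18, 1.66 ± 0.58, 2.23 ± 0.29 and 1.99 ± 0.25 in the same groups, so every SIN rat (from 1.71) lay above every normal rat (up to 1.66). Cry2 minus Cry1 stayed closer, at 1.69 ± 0.21, 1.91 ± 0.52, 1.86 ± 0.24 and 1.99 ± 0.21. Bhlhe41 minus Bhlhe40, the pair of DEC repressors, averaged -6.24 ± 0.55 in normal and -4.46 ± 0.96 with 40 mg/kg. These differences were chosen after values were known and carry no test.

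Renal markers moved with some of these groups. Thick ascending limb markers summed to 3440 to 4440 CPM in normal rats and to 1900 to 3250 CPM in the other 3 groups, but the 3 markers differed. The log2 differences of the DN rats, the lower and the higher SIN dose from normal were -0.77, -0.76 and -1.06 for Umod (adjusted p = 0.0154, 0.00289 and 8.12e-04 in edgeR), -0.57, -0.54 and -0.54 for Cldn16 (adjusted p = 0.0959, 0.0402 and 0.144) and -0.17, 0.17 and 0.18 for Slc12a1 (adjusted p = 0.745, 0.683 and 0.756). Fat markers, in tissue that adjoins the kidney, summed to 6.72 to 15.6 CPM in normal rats and 9.57 to 34.8 CPM in the other groups. The adrenal cortex marker Cyp21a1 was between 0.119 and 2.24 CPM in the 16 rats.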
